A study of Arabidopsis thaliana with 6 samples.

Results

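The transcripts described here are those whose level in the hda19 mutant stood above that in both other genotypes of the series. Genes were chosen by their adjusted read counts. A gene was taken when both hda19 libraries held an adjusted read count of at least 50 and when each of these values was at least 1.7 times the highest of the 4 values of the wild-type and hdip1/2/3 libraries. This rule found 19 of the 32548 genes, or 0.111% of the 17147 genes with at least 50 in both hda19 libraries. All 19 are protein coding. The same rule with hdip1/2/3 in the place of hda19 found 16 genes, and with the wild type in that place 79. The rule used hda19 against the wild type and hda19 against hdip1/2/3, so the differences between hda19 and the other genotypes are given below as a description and carry no test.

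RNA-seq had been performed on 20-day-old Arabidopsis thaliana seedlings grown on MS plates and soil under long days, with 2 libraries for each of 3 genotypes. The wild type was Col-0, the hda19 mutant was a single T-DNA insertion line in the Col-0 background (SALK_139445), and hdip1/2/3 was a CRISPR-Cas9 triple mutant in which all 3 HDIP genes were edited. The labels name no treatment for any group. The study's methods call the replicates independent biological ones, and they describe paired reads of 150 nt whereas the labels describe single-end reads of 50 nt. The study's methods name plants as the source of the RNA and do not say whether roots were included. No cell type was isolated, so fewer cells of a type and less RNA per cell cannot be told apart.

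HDA19 is a histone deacetylase of the RPD3 class, an enzyme that removes acetyl groups from lysines of the histone tails. Loss of acetyl groups usually goes with a closed chromatin state and low transcription, and HDA19 is known for holding down stress and defence genes in leaves. HDIP1, HDIP2 and HDIP3 are the plant proteins that the study describes as partners of HDA19 in its complexes. The comparison of both mutants asks which transcripts depend on the enzyme and on its partners, and the genes described here are those that met the rule above in favour of hda19.

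The recovered depth was 43906641 to 48407739 reads on genes per library, and no library stood apart by depth. The HDA19 transcript was at 2832 and 4561 in hda19, below and above the 4298 and 4416 of Col-0, and at 4893 and 5206 in hdip1/2/3. The HDIP1 transcript was at 714 and 813 in hda19, against 522 and 379 in the wild type and 583 and 479 in hdip1/2/3. HDIP2 was at 610 and 561 in hda19, against 378 and 239 in the wild type and 400 and 380 in hdip1/2/3. HDIP3 was at 876 and 1094 in hda19, against 718 and 550 in the wild type and 744 and 591 in hdip1/2/3. For each of these 3 genes both hda19 values were above the 4 others, and the adjusted P values of hda19 against the wild type were 0.0789 to 0.148 in limma-trend, a linear model fitted across all genes on log2(value + 1). T-DNA insertions and small edits can leave transcript levels as they are, so the labels are not checked by this. Of the tissue markers, the summed leaf mesophyll genes (4 of 4 detected) had overlapping ranges in the wild type and hda19. They were at 1.64e+06 to 1.90e+06 in the wild type and 1.37e+06 to 1.73e+06 in hda19. In hdip1/2/3 they were at 1.78e+06 to 2.14e+06, above the range of hda19. The 4 stomatal lineage and trichome genes summed to 1703 to 1806 in the wild type, 1391 to 1499 in hda19 and 1077 to 1187 in hdip1/2/3, without overlap. The summed root genes were at 2943 to 3319 in the wild type, 2190 to 2214 in hda19 and 2060 to 2074 in hdip1/2/3, carried almost wholly by SCR and SHR, which are also expressed in leaves. The defining root hair genes RHD6 and EXPA7 were listed at 0 in all 6 libraries. The 7 flower genes summed to 141 to 168 in the wild type, 150 to 292 in hda19 and 171 to 197 in hdip1/2/3. The 6 seed storage genes were each under 10 in every library. The part of these tissue markers in the results below was not tested.

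By role, the 19 genes fall under jasmonate turnover and oxylipins (JRG21, ST2A, DOX1), ethylene synthesis (ACS2) and transcription factors (NAC3, GRF8). Others are receptors by family (RLP20, RLP21, RLP53, AT1G51850, AT1G58400) and glucosinolate and endoplasmic reticulum body proteins (TSA1, MBP1). The rest fall under oxidation and detoxification (PRX52, CYP76C2, GSTU24, DIN11) and other enzymes (CSLG2, AT1G15125). Of these genes 7 had an hda19 mean under 100 adjusted counts, 10 had a mean between 100 and 1000, and 2 had a mean over 1000, so most are transcripts of low abundance. The fewest recovered reads of any of the 19 genes in an hda19 library were 52.

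**Figure D1:**
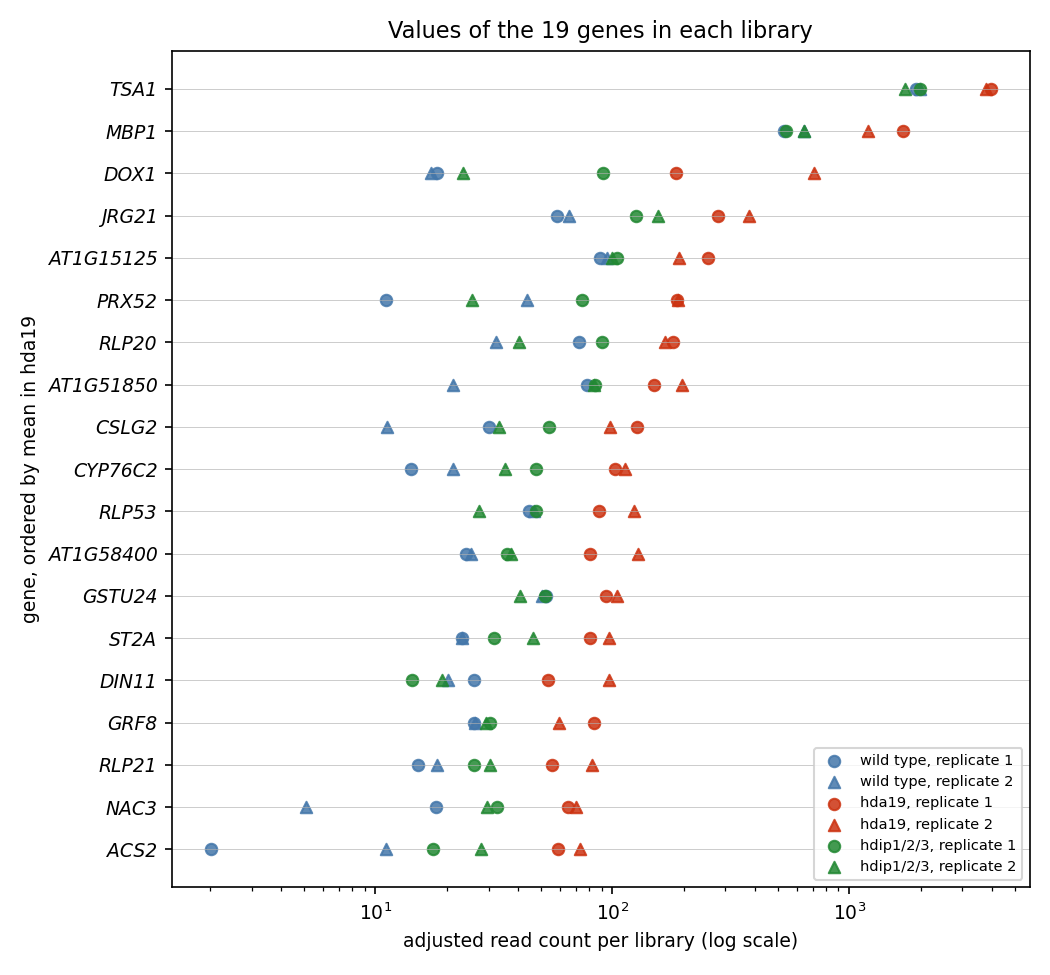
Adjusted read count per library on a log axis for the 19 genes, ordered from bottom to top by their mean in hda19. Circles and triangles are replicates 1 and 2. The red hda19 points lie to the right of every blue wild-type and green hdip1/2/3 point in each row, as the rule requires, and 11 of the 19 rows have their highest other value in hdip1/2/3 replicate 1.

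Jasmonate is an oxylipin hormone of wound and defence responses, and plants remove it by oxidation, hydroxylation and sulfation. JRG21 (AT3G55970, also known as JOX3; chromosome 3, 20766735 to 20769410, minus strand, 2 exons) encodes a 2-oxoglutarate-dependent oxygenase that hydroxylates jasmonic acid and so inactivates it. Its adjusted counts in hda19 were 280 and 377, compared with 58.4 and 65.7 in Col-0 and 126 and 156 in hdip1/2/3. The 3 genotypes did not overlap, with hdip1/2/3 between the others. ST2A (AT5G07010; chromosome 5, 2174668 to 2176446, minus strand, 1 exon) encodes the sulfotransferase that acts on hydroxylated jasmonate. It was at 80.3 and 97.1 in the hda19 libraries, compared with 23.1 and 23.3 in Col-0 and 31.7 and 46.1 in hdip1/2/3, again with hdip1/2/3 in the middle. DOX1 (AT3G01420; chromosome 3, 159450 to 162905, minus strand, 10 exons) encodes an alpha-dioxygenase that makes fatty acid hydroperoxides in response to pathogens. DOX1 was at 18.1 and 17.2 in Col-0 and at 91.6 and 23.4 in hdip1/2/3, compared with 185 and 712 in hda19. Both mutants were uneven for this gene. Its mean in hda19 was 25.4 times that of the wild type, yet the hda19 replicates themselves differed by 3.84 times, and the ratio was 40.3 without hda19 replicate 1 and 10.5 without replicate 2.

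Genes of the same jasmonate turnover steps, taken by family after the 19 genes were known and therefore not tested, did not all keep this order. JOX4 (AT2G38240) came nearest to meeting the rule among these relatives. It was at 45.3 and 45.3 in hda19, against 20.1 and 2.05 in the wild type and 17.3 and 11.4 in hdip1/2/3. JOX4 thus missed only the minimum of 50. JOX2 (AT5G05600) was at 751 and 616 in the hda19 libraries, compared with 197 and 263 in Col-0 and 413 and 669 in hdip1/2/3, where the ranges of the mutants overlap. ST2B (AT5G07000), the neighbour and paralog of ST2A, was at 485 and 563 in Col-0 and at 685 and 661 in hdip1/2/3, compared with 651 and 632 in hda19. For ST2B both hdip1/2/3 libraries were above both hda19 libraries, the reverse of the order for ST2A.

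ACS2 (AT1G01480; chromosome 1, 175706 to 178406, plus strand, 4 exons) encodes a 1-aminocyclopropane-1-carboxylate synthase, the enzyme of the step that usually limits ethylene synthesis. It was at 58.7 and 73.1 in the hda19 libraries, compared with 2.02 and 11.1 in Col-0 and 17.5 and 28.0 in hdip1/2/3. The mean in hda19 was 2.89 times that in hdip1/2/3 and 10.04 times that in the wild type, where the values rest on 2 and 11 reads. The ratio to the wild type was 5.93 without wild-type replicate 1 and 32.6 without replicate 2. None of the 6 other tested ACC synthases showed this order. The mean of each was higher in hdip1/2/3 than in hda19, although for ACS7 the ranges of the mutants overlapped. ACS8 was at 112 and 73.5 in hda19 against 125 and 120 in hdip1/2/3, and ACS11 was at 117 and 133 in hda19 against 210 and 192 in hdip1/2/3. For both of these paralogs the hdip1/2/3 libraries were the higher ones.

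NAC3 (AT3G15500, also known as ANAC055; chromosome 3, 5234457 to 5236196, plus strand, 3 exons) is a NAC transcription factor of jasmonate, abscisic acid and drought responses. It was at 64.8 and 70.3 in hda19, against 18.1 and 5.08 in the wild type and 32.5 and 29.4 in hdip1/2/3, without overlap between the genotypes. Its paralog ANAC019 (AT1G52890) was at 164 and 182 in the hda19 libraries, compared with 26.1 and 19.2 in Col-0 and 103 and 33.6 in hdip1/2/3. ANAC019 fell short of the rule with a ratio of 1.60. NAC3 was taken with 2 other tested stress NAC genes, chosen after their values were seen. At an adjusted P value under 0.05 in limma-trend, 2 of these 2 were higher in hda19 and 0 in hdip1/2/3. Their median log2 fold changes were 2.18 and 1.17. GRF8 (AT4G24150; chromosome 4, 12535972 to 12539576, plus strand, 4 exons) belongs to the growth-regulating factors, transcription factors that promote cell proliferation in leaves. GRF8 was at 26.2 and 26.3 in Col-0 and at 30.4 and 29.4 in hdip1/2/3, compared with 83.2 and 59.3 in hda19. Here hdip1/2/3 lay close to the wild type. Over the other 8 growth-regulating factors the median log2 fold change of hda19 against the wild type was -0.05. It ran from -1.21 for GRF7, at 48.3 and 80.9 in the wild type and 40.0 and 17.4 in hda19, to 0.63 for GRF3, at 202 and 285 in the wild type and 372 and 374 in hda19.

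The receptor group held 5 genes, placed there by the name of their family, and an immune role of each was not examined. Receptor-like proteins carry leucine-rich repeats outside the cell and lack a kinase domain of their own, receptor-like kinases carry such a domain, and NLR proteins are receptors inside the cell. RLP20 (AT2G25440; chromosome 2, 10826735 to 10829402) was at 180 and 167 in hda19, against 72.4 and 32.4 in the wild type and 90.8 and 40.2 in hdip1/2/3. In this gene the spread within the wild type and within hdip1/2/3 was wide, and the ranges of these genotypes overlapped. RLP21 (AT2G25470; chromosome 2, 10838294 to 10842016) was at 55.6 and 82.1 in the hda19 libraries, compared with 15.1 and 18.2 in Col-0 and 26.1 and 30.4 in hdip1/2/3. RLP20 and RLP21 lie 8.89 kb apart on the same strand with 2 genes between them, and were the only members of the set within 3 genes of each other. RLP53 (AT5G27060; chromosome 5, 9521978 to 9525478) was at 44.3 and 46.5 in Col-0 and at 47.5 and 27.5 in hdip1/2/3, compared with 87.5 and 123 in hda19. The annotated gene AT5G27065 overlaps RLP53 on the opposite strand, so some reads of RLP53 may be lost. Reads that match paralogs equally well are lost from counts of uniquely mapped reads, so the levels of these receptor genes can be too low.

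Of the 46 RLP genes with tested values, these 3 were in the set, and the median log2 fold change of the remaining 43 in hda19 was 0.43. The kinase gene AT1G51850 (chromosome 1, 19252811 to 19256927) was at 150 and 196 in hda19, against 78.4 and 21.3 in the wild type and 84.7 and 83.6 in hdip1/2/3. For this gene the wild-type replicates were further apart than those of either mutant, and replicate 1 was near the hdip1/2/3 level. The NLR gene AT1G58400 (chromosome 1, 21695699 to 21699695), of the class with a coiled-coil domain, was at 80.3 and 128 in the hda19 libraries, compared with 24.1 and 25.3 in Col-0 and 35.9 and 37.3 in hdip1/2/3. Its replicates were close in the wild type and hdip1/2/3, with no overlap.

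TSA1 and MBP1 were by far the most abundant of the 19 transcripts, also per length. Endoplasmic reticulum bodies are stores of beta-glucosidases in Brassicaceae, and myrosinases are the beta-glucosidases that split glucosinolates into toxic products when tissue is damaged. TSA1 (AT1G52410; chromosome 1, 19520603 to 19525685, 26 exons) encodes a protein of these bodies that is induced by jasmonate. It was at 1920 and 1978 in Col-0 and at 1978 and 1725 in hdip1/2/3, compared with 3953 and 3762 in hda19. MBP1 (AT1G52040; chromosome 1, 19350314 to 19352791) encodes a lectin-like protein that binds myrosinase. It was at 1692 and 1199 in hda19, against 532 and 641 in the wild type and 539 and 644 in hdip1/2/3. For both genes hdip1/2/3 lay within or beside the range of the wild type. The hda19 mean was 1.98 times the wild-type mean and 2.08 times the hdip1/2/3 mean for TSA1, and 2.46 and 2.44 times for MBP1. Per kb of transcript, the hda19 means were 1396 adjusted counts for TSA1 and 826 for MBP1, followed by 205 for JRG21, 192 for DOX1, 156 for AT1G15125 and 144 for PRX52.

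The genes beside them in function gave values of both kinds. These relatives, too, were chosen after their values were seen, so the P values given for them are a description only. BGLU18, the beta-glucosidase gene next to TSA1 on the chromosome, was at 33028 and 22771 in the hda19 libraries, compared with 12929 and 16505 in Col-0 and 12049 and 13382 in hdip1/2/3, the same order as TSA1 at a lower ratio. NAI2, which encodes the TSA1-related protein that forms the bodies, was at 721 and 453 in Col-0 and at 834 and 510 in hdip1/2/3, compared with 1179 and 1704 in hda19. MBP2, the paralog beside MBP1, was at 636 and 457 in hda19, against 324 and 424 in the wild type and 152 and 176 in hdip1/2/3. PYK10, a beta-glucosidase gene of the bodies, was at 6828 and 8835 in hda19, against 3494 and 3539 in the wild type and 6636 and 5813 in hdip1/2/3. In these 4 genes, too, both hda19 values were above the 4 others, but PYK10 also rose in hdip1/2/3, with an adjusted P value of 0.0261 in limma-trend, and MBP2 fell there, with 0.0337. NAI1, which encodes the transcription factor required for the bodies, showed another order and was at 188 and 210 in hda19, against 66.4 and 103 in the wild type and 245 and 359 in hdip1/2/3, where it rose with an adjusted P value of 0.0212 in limma-trend. The myrosinase gene TGG1 was at 119278 and 125156 in the wild type and at 124872 and 133704 in hda19, with overlap, and TGG2 was at 54386 and 52352 in the wild type and at 54532 and 51615 in hda19, also with overlap.

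Among the genes of oxidation, PRX52 (AT5G05340; chromosome 5, 1578869 to 1580875) encodes a secreted class III peroxidase with a role in lignin formation. It was at 187 and 189 in the hda19 libraries, compared with 11.1 and 43.4 in Col-0 and 74.4 and 25.5 in hdip1/2/3. It had the highest ratio of the lower hda19 value to the highest other value, 2.52, with close hda19 replicates and wide spread elsewhere. CYP76C2 (AT2G45570; chromosome 2, 18779321 to 18781973) is a cytochrome P450 of the family that oxidises monoterpenols, and was at 14.1 and 21.2 in Col-0 and at 47.6 and 35.2 in hdip1/2/3, compared with 103 and 113 in hda19. Its neighbour and paralog CYP76C1 did not show this order. It was at 766 and 661 in hda19 and 631 and 673 in hdip1/2/3, both below the 1025 and 1152 of the wild type. GSTU24 (AT1G17170; chromosome 1, 5869543 to 5870883) encodes a tau-class glutathione transferase of xenobiotic detoxification. It was at 93.6 and 104 in hda19, against 52.3 and 50.6 in the wild type and 52.0 and 40.9 in hdip1/2/3, and had the smallest ratio of hda19 to wild-type means of the 19 genes, 1.92. DIN11 (AT3G49620; chromosome 3, 18393747 to 18397050) is a dark-inducible oxygenase gene. It was at 53.6 and 96.5 in the hda19 libraries, compared with 26.1 and 20.2 in Col-0 and 14.2 and 19.1 in hdip1/2/3. DIN11 was the only gene of the set for which both hdip1/2/3 libraries were below both wild-type libraries. The dark-inducible gene ASN1, by contrast, was above the wild type in both mutants. ASN1 was at 486 and 536 in hda19 and 479 and 315 in hdip1/2/3, against 73.4 and 75.9 in the wild type.

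CSLG2 (AT4G24000; chromosome 4, 12461907 to 12465675) is a cellulose synthase-like gene that lies between CSLG3 and CSLG1. It was at 30.2 and 11.2 in Col-0 and at 54.1 and 33.1 in hdip1/2/3, compared with 126 and 97.6 in hda19. Both flanking paralogs moved the other way. CSLG1 was at 63.8 and 64.0 in hda19, against 165 and 211 in the wild type and 54.3 and 58.7 in hdip1/2/3, and CSLG3 was at 793 and 913 in the wild type and 472 and 511 in hda19. AT1G15125 (chromosome 1, 5204312 to 5205964), annotated as an S-adenosylmethionine-dependent methyltransferase, was at 253 and 191 in the hda19 libraries, compared with 88.5 and 95.1 in Col-0 and 104 and 99.5 in hdip1/2/3. Its 5′ end overlaps the gene AT1G15120 on the same strand, so some of its reads may be shared or lost.

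Within hda19, replicate 2 held the higher value for 13 of the 19 genes and replicate 1 for 6. The higher value was less than 1.5 times the lower one for 16 genes, with a median of 1.304 times. Among the 4 other libraries, the highest value fell in hdip1/2/3 replicate 1 for 11 genes, in hdip1/2/3 replicate 2 for 6, in wild-type replicate 1 for 2 and in wild-type replicate 2 for 0. The ratio of the lower hda19 value to that highest value ran from 1.74 to 2.52 with a median of 1.86, and reached at least 2 for 6 genes. Most of the 19 genes therefore lay near the limit of the rule. Just inside the fold limit were ST2A at 1.74, AT1G51850 at 1.77 and GSTU24 at 1.79. Just outside were the nucleoside phosphatase gene AT1G14250 at 1.698, the lanosterol synthase gene LAS1 at 1.696 and the kinase gene AT1G67000 at 1.66. Nearest above the minimum were DIN11 with a lower hda19 value of 53.6, RLP21 with 55.6 and ACS2 with 58.7, and nearest below it were JOX4 with 45.3, the laccase gene LAC7 with 42.2 and EDA11 with 40.0.

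The size of the difference on the fitted scale followed from the rule. Changes of low genes come out too small on the log2(value + 1) scale used. On it, the difference of hda19 minus wild type ran from 0.93 to 4.29 with a median of 1.96, beside a median of 0.00 over the 23685 genes tested. With a limit of 1 on the log2 fold change and an unadjusted P under 0.05, 17 of the 19 genes were called upregulated in hda19, where 4.65% of all tested genes were. With limma-trend and a Benjamini-Hochberg adjusted P under 0.05, 11 were called, beside 2.15% of all tested genes. Since this contrast chose the genes, nothing is read from these counts.

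What the rule left free was the order of hdip1/2/3 and the wild type, because it treats their 4 libraries alike. In the fit of limma-trend over all genes, 1 of the 19 genes was called higher in hdip1/2/3 than in the wild type, where 4.35% of all 23685 tested genes were, and 0 were called lower, where 2.82% were. A share of 1 in 19 is near that background. The called gene was JRG21, with a log2 fold change of 1.17 (standard error 0.26) and an adjusted P value of 0.0448 in limma-trend, higher in 2 of 2 libraries. The log2 fold change was 1.01 to 1.32 when any of the 6 libraries was left out, with adjusted P values of 0.129 to 0.285, in fits in which 0 of all tested genes passed in either direction. In limma-voom on the recovered reads JRG21 had an adjusted P value of 0.0577. With the limit of 1 on the log2 fold change and an unadjusted P under 0.05, 4 of the 19 genes were called upregulated in hdip1/2/3 (JRG21, CYP76C2, ACS2 and NAC3), where 4.92% of all tested genes were. By limma-voom no gene of the set passed at an adjusted P value under 0.05 in either direction. At an unadjusted P value under 0.05 the limma-trend and limma-voom fits each gave 4 higher and 0 lower. Of all 23685 tested genes, 3567 were higher and 3677 lower by that unadjusted limit in limma-trend, and 3557 and 3622 in limma-voom.

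The level in hdip1/2/3 differed among the 19 genes. Both hdip1/2/3 libraries were above both wild-type libraries for 12 of the 19 genes, where this held for 30.7% of all tested genes, and both were below for 1, where this held for 31.3%. In the remaining 6 genes the ranges overlapped. The mean in hdip1/2/3 was within 1.3 times of the wild-type mean for 7 genes (TSA1, MBP1, GRF8, AT1G15125, RLP20, RLP53 and GSTU24), between 1.48 and 3.47 times the wild-type mean for 11 genes, and lower for DIN11. The 11 genes included the jasmonate, ethylene and NAC genes, and ACS2 was at 3.47 times, which became 2.05 without wild-type replicate 1 and 11.3 without replicate 2. This grouping was chosen after the values were seen and depends on single libraries. Without wild-type replicate 1 the ratio was 1.15 for PRX52 and 2.02 for RLP20, and without wild-type replicate 2 it was 1.07 for AT1G51850. The median log2 fold change of hdip1/2/3 minus wild type was 0.70 over the 19 genes, beside 0.00 over all tested genes and 0.0050 over those with at least 50 in both hda19 libraries. With 2 libraries per genotype an exact permutation test of a single gene cannot go below 0.333, so only the spread shared across genes gives a smaller P value. The comparisons of hda19 and of hdip1/2/3 share their Col-0 libraries.

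**Figure D2:**
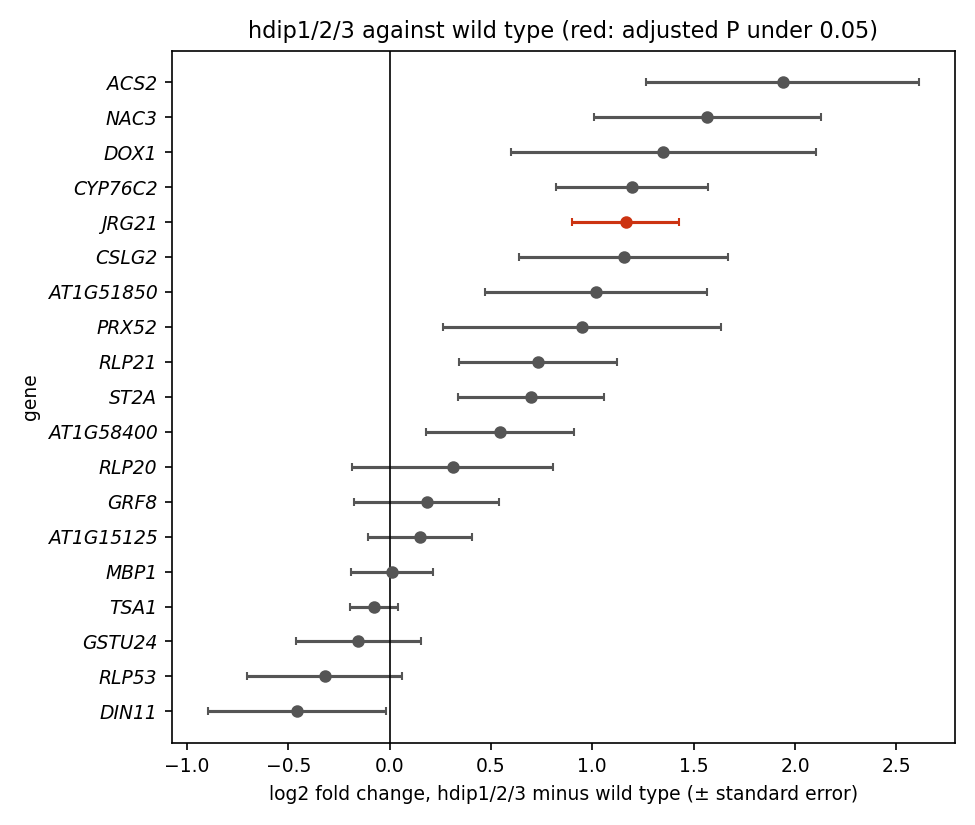
Log2 fold change of hdip1/2/3 minus wild type on the log2(value + 1) scale for the 19 genes, with bars of 1 standard error from limma-trend. JRG21, in red, is the only gene with an adjusted P value under 0.05. Of the 19 genes 15 lie above 0, and DIN11, RLP53, GSTU24 and TSA1 lie below.

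To see whether genes around the 19 loci moved with them, the 3 annotated genes on each side were examined. Of these neighbours, 83 had tested values and were not themselves in the set, and their median log2 fold change in hda19 against the wild type was 0.0045. At an adjusted P value under 0.05 in limma-trend, 2 were higher and 4 lower in hda19, beside 2.15% and 0.688% of all tested genes. The higher ones were NAC2 (AT3G15510), a NAC gene near NAC3, and the kinase gene AT1G51860 beside AT1G51850. In limma-trend NAC2 had a log2 fold change of 1.304 and an adjusted P value of 0.00897, and AT1G51860 had 1.85 and 0.0499. Both belong to the family of the gene they neighbour. NAC2 was also higher in hdip1/2/3, with a log2 fold change of 1.24 and an adjusted P value of 0.00824 in limma-trend. For AT1G51860 these values in hdip1/2/3 were 0.78 and 0.207. The neighbours lower in hda19 included CSLG1 and CSLG3, which fell by 1.53 and 0.79 on the log2 scale with adjusted P values of 0.035 and 0.0406. In hdip1/2/3 these 2 genes were lower as well, with adjusted P values of 0.0205 and 0.0223 in limma-trend. With the limit of 1 on the log2 fold change and an unadjusted P under 0.05, 4 of the 83 neighbours were called upregulated and 3 downregulated, beside 4.65% and 2.09% of all tested genes.

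**Figure D3:**
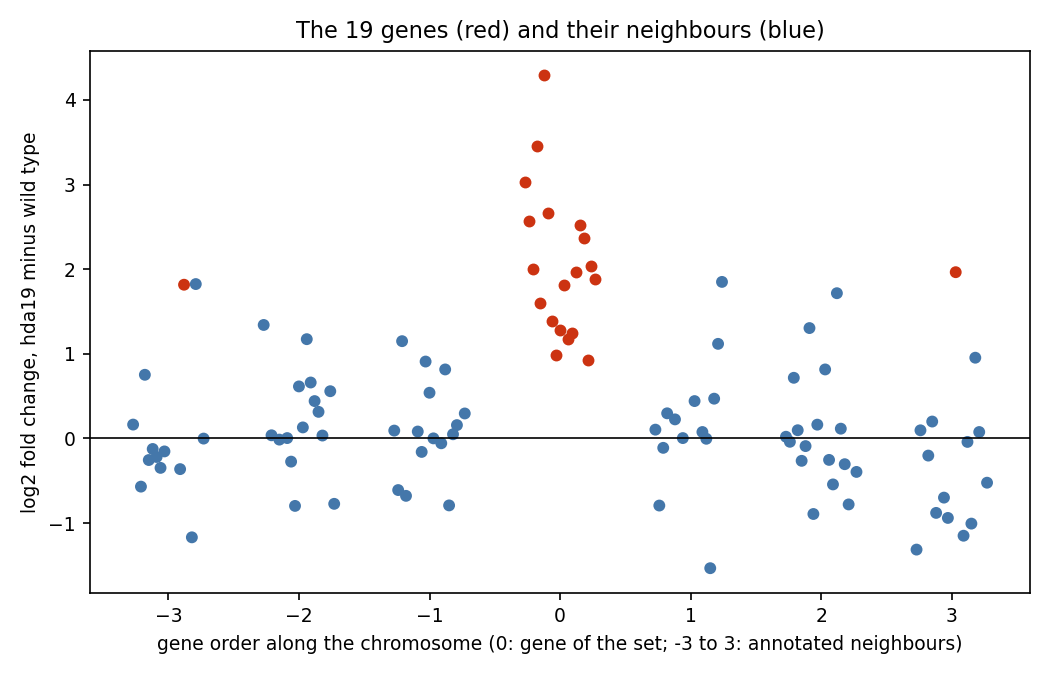
Log2 fold change of hda19 minus wild type for the 19 genes (red, position 0) and for the tested genes at the 3 annotated positions on each side (blue), on the log2(value + 1) scale. The red points at positions -3 and 3 are RLP20 and RLP21, which appear as each other's neighbours, and the blue points have a median of 0.0045.

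The genes lie on all 5 chromosomes, with 7 on chromosome 1, 3 on chromosome 2, 4 on chromosome 3, 2 on chromosome 4 and 3 on chromosome 5. Chromosome 1 holds 26.4% of all tested genes. Apart from RLP20 and RLP21, CSLG2 and GRF8 lie 70.3 kb apart, AT1G51850 and MBP1 93.4 kb, and MBP1 and TSA1 168 kb. No RefSeq product name was shared by 3 or more of the 19 genes. Their median transcript length was 2002 nt, beside 1787 nt for the 17147 genes with at least 50 in both hda19 libraries. The median GC content was 40.9% and 41.3%, and the median number of exons 4 and 5, respectively.

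The promoters of the 19 genes were read from the RefSeq genome TAIR10.1, from 250 bases before to 50 bases after the annotated start, and searched on both strands. Each motif is known from other work as a binding site of a factor class, and a match here is a match of letters only. The G-box, CACGTG, a site of MYC and bZIP factors, was found in 3 of the 19 promoters and in 8.25% of the promoters of all tested genes. The shorter ACGTG core of abscisic acid response elements, which every G-box contains, was in 8 of 19 and 27.0%. The W-box core TTGAC, bound by WRKY factors, was in 11 of 19 and 50.6%, and the TATA box TATAAA in 12 of 19 and 51.0%. The GCC box GCCGCC, the heat shock element GAANNTTC and the I box GATAAG were each in 1 of 19, against 2.67%, 11.4% and 14.8%. The telo box AAACCCT and the site II element TGGGCC, motifs common in promoters of growing cells, were in 0 of 19, against 9.62% and 17.1%. The stretches that hold a G-box, and the ACGTG core of JRG21, are shown because both kinds of site are read by factors of jasmonate and abscisic acid responses, with the matched letters in capitals and each stretch written 5′ to 3′ on the strand of its gene. They lie at chr1:19352881-19352906 (minus strand) for MBP1, chr3:18393510-18393535 and chr3:18393732-18393757 (plus strand) for DIN11, chr4:12461880-12461905 (plus strand) for CSLG2 and chr3:20769443-20769468 (minus strand) for JRG21.
MBP1: tacgtaattaCACGTGttctccagca
DIN11, far site: aactaacttaCACGTGatgataaaca
DIN11, site at the start: tatgatttccCACGTGggctgctccg
CSLG2: cttcacttcaCACGTGtcttttggag
JRG21: ctgttgtaaaaACGTGtaccactaca
The 3 receptor-like protein genes each hold a W-box core, shown because they are the largest family in the set. The capitals mark TTGAC or its reverse complement. They lie at chr2:10826622-10826647 and chr2:10838231-10838256 (plus strand) for RLP20 and RLP21 and at chr5:9525553-9525578 (minus strand) for RLP53.
RLP20: acttcttataaGTCAAgttatgtttc
RLP21: taacagagactTTGACtcttttttgt
RLP53: cgcctcggaggGTCAAgctgtgttgg
MBP1 and DIN11, which hold a G-box, were not above the wild type in hdip1/2/3, whereas CSLG2, which also holds one, had both hdip1/2/3 libraries above both wild-type libraries.

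None of the 19 genes is on any of 15 lists of stress, hormone and growth genes (185 genes) against which they were compared, so these lists show the surroundings of the set rather than the set. Over all tested genes, limma-trend at an adjusted P value under 0.05 called 2.15% higher and 0.688% lower in hda19. In hdip1/2/3 these shares were 4.35% and 2.82%. No such share is given for unadjusted P values in hda19, so nothing is read from those counts. On the jasmonate and ethylene-jasmonate list, 0 of the 21 tested genes passed limma-trend in hda19 at an adjusted P value under 0.05 in either direction. At an unadjusted P value under 0.05 it was 7 higher and 0 lower, and limma-voom also called 0. The list's median log2 fold change was 0.66 in hda19 and -0.04 in hdip1/2/3, where 3 genes rose and 2 fell. In hdip1/2/3 limma-voom called 3 higher and 1 lower. At an unadjusted P value under 0.05 in limma-trend it was 6 higher and 5 lower, where 3567 and 3677 of all 23685 tested genes were. The genes that rose in hdip1/2/3 were AOC1 and AOC2, allene oxide cyclases of jasmonate synthesis, and the repressor gene JAZ7, and those that fell were LOX2, of jasmonate synthesis, and the storage protein gene VSP1. MYC2, the central factor of the pathway, was listed at 0 in all 6 libraries and gives no value. The difference in this list's median between the mutants was not tested.

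On the senescence and carbon starvation list, which holds other dark-inducible genes, 6 of 10 tested genes rose in hda19 and 6 of 10 in hdip1/2/3, with medians of 1.80 and 1.64. SAG13, a senescence marker, was at 600 and 517 in Col-0 and at 3023 and 1831 in hdip1/2/3, compared with 3668 and 3249 in hda19. DIN2, a beta-glucosidase gene that did not pass in either mutant, was at 66.2 and 532 in hda19, against 6.03 and 4.05 in the wild type and 66.5 and 3.00 in hdip1/2/3, so that, as for DOX1, replicate 2 was the high one in hda19 and replicate 1 in hdip1/2/3. On the salicylic acid list 7 of 17 genes rose in each mutant, with medians of 0.72 and 0.81. On the rapid wound and touch list, whose genes react within minutes to handling, 0 of 10 passed limma-trend in hda19 (4 higher and 0 lower at an unadjusted P value under 0.05, and 0 by limma-voom), and 6 of 10 rose in hdip1/2/3, with medians of 0.68 and 1.27. Of the 17 tested genes for abscisic acid, drought and cold, 0 passed in hda19 by limma-trend or limma-voom, with 0 higher and 5 lower at an unadjusted P value under 0.05, and RD29A alone fell in hdip1/2/3. Their medians were -0.66 and -0.13. Of the flavonoid and anthocyanin genes 7 of 12 rose in each mutant, and of the camalexin genes 3 of 6. On the other 8 lists no more than 1 gene passed in either direction in hda19. In hdip1/2/3, 2 of 8 cell division genes were lower and 2 of 8 flowering time genes higher, with medians of -0.72 and -0.19. On the rest of these lists no more than 1 gene passed in either direction in hdip1/2/3.

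**Figure D4:**
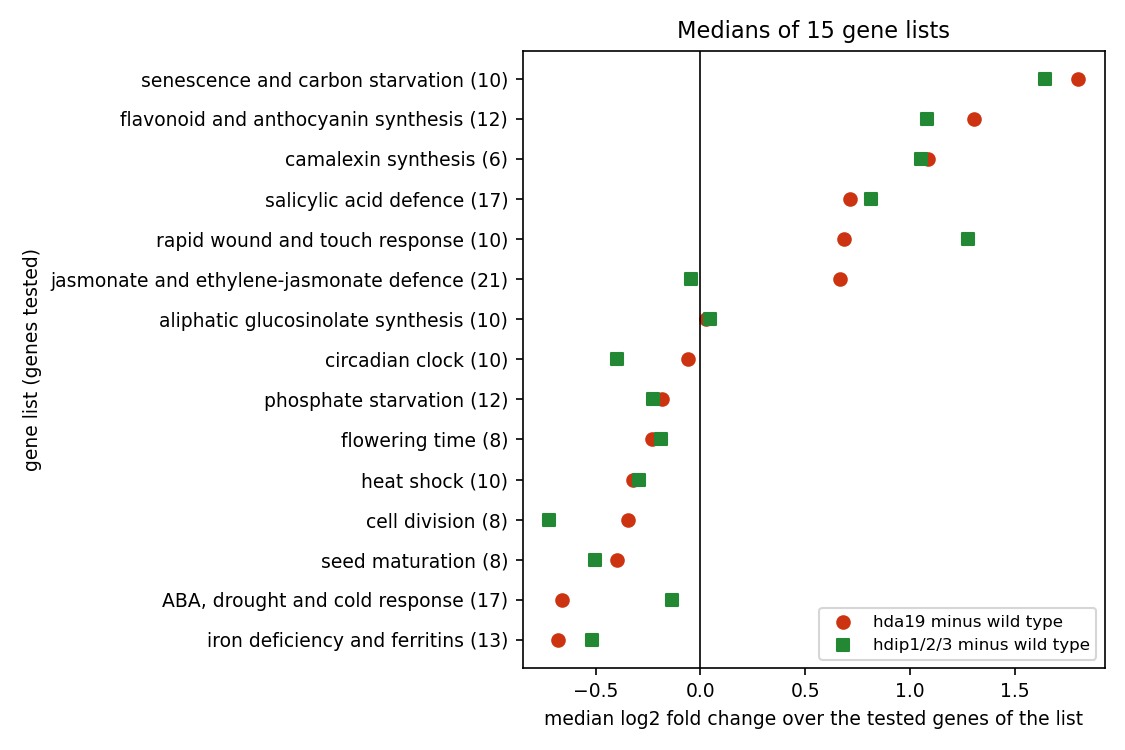
Median log2 fold change of hda19 (red circles) and hdip1/2/3 (green squares) minus wild type over the tested genes of 15 lists, none of which holds any of the 19 genes. The number of tested genes is in brackets. The jasmonate list has medians of 0.66 in hda19 and -0.04 in hdip1/2/3, and the rapid wound and touch list 0.68 and 1.27.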

How the data were processed

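RNA-seq libraries were analysed from 3 genotypes, 2 per genotype. The deposited values are signal values per gene. They were made by the authors by mapping with HISAT2 to TAIR10, counting of uniquely mapped reads and an adjustment of the counts to a common library size. The values have the form of a quantile adjustment, which was inferred from them. After the adjustment was undone, 100% of the 195288 values were whole reads with a tolerance of 0.01. These recovered reads were used for depth and for limma-voom. Names and positions came from RefSeq TAIR10.1, in which all 32548 identifiers were found. Genes whose mean reached 1 in any genotype (23685) were tested. Their log2(value + 1) was fitted with limma-trend (R 4.3.3, limma 3.58.1), all 6 libraries and genotype only, with P values adjusted by the Benjamini-Hochberg method over all tested genes. The procedure was tested on simulated data. Plots used Python 3.11.15 and matplotlib 3.10.9. The 19 genes and the gene lists were chosen with earlier results of these data known. Named genes were the mutated genes, the 12 members with the highest ratio and the 6 with the most counts per kb, members called in hdip1/2/3, the 3 genes nearest each limit on either side, and families and neighbouring members. All 19 members are named because their number is small, and the relatives of the members were chosen after their values were seen. Alternatives were another scaling, pseudocount, filters, limits of the rule, a pairwise fit, a replicate block and the omission of each library. Several members had few reads, down to 2 in a library and under 20 in at least one library for 8 of the 19, so counting error is large for their low values, and with 2 libraries per genotype precision is also limited by the number of libraries.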

Additional observations from a re-analysis of the deposited data

How the results depend on the processing

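The 19 genes depend on the limits of the rule. A fold limit of 1.5 gave 38 genes and 2 gave 6, and a minimum of 20 gave 37 and 100 gave 9. Leaving out each library in turn gave 22 to 108 genes, with 108 without hda19 replicate 1, 60 without hda19 replicate 2, 107 without hdip1/2/3 replicate 1 and 33 without wild-type replicate 1. Leaving out a library removes a condition of the rule, so the 19 stay in these sets by construction and the number can only grow. Median-of-ratios scaling gave the same 19, and recovered reads scaled to the mean library total, chosen after seeing the data, gave 28 with all 19 among them.

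The 1 gene called higher in hdip1/2/3 than in the wild type became 0 with a pseudocount of 0.1, with no filter, in the fit of hdip1/2/3 and wild type only and in limma-voom (chosen after seeing the data), was 0 to 0 when a library was left out, and was 4 by the unadjusted rule. No alternative called a gene of the set lower. Over all tested genes, the 1031 called higher became 34 with no filter and 0 in the pairwise fit, where 2746 passed at an unadjusted P value under 0.05, and 0 to 0 with a library left out. The 668 called lower became 394 with a pseudocount of 0.1, 33 with no filter, 1350 with a mean of at least 10, 0 in the pairwise fit and 0 to 0 with a library left out. With a library left out, 2086 to 3640 genes were higher and 1682 to 3534 lower at an unadjusted P value under 0.05. The causes were not tested.

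The sign of the hdip1/2/3 difference was kept under all 13 alternatives for 14 of the 19 genes. With a library left out it ranged from -0.18 to 0.022 for TSA1, -0.12 to 0.15 for MBP1, -0.27 to 0.89 for RLP20, -0.70 to 0.066 for RLP53 and -0.33 to 0.016 for GSTU24. For 6 genes that kept their sign the value moved by more than 1.5 times. With wild-type replicate 1 left out and with wild-type replicate 2 left out, respectively, it was 0.94 and 2.94 for ACS2, 0.0097 and 1.89 for PRX52, 1.93 and 0.10 for AT1G51850, 1.83 and 0.48 for CSLG2 and 2.39 and 0.74 for NAC3. For DOX1 it was 0.39 without hdip1/2/3 replicate 1 and 2.31 without replicate 2. Replicates with the same number shared only that number, with correlations of their deviations of -0.08, 0.13 and -0.07 between the genotypes. With the replicate block, 1 gene of the set was called higher and 0 lower in hdip1/2/3, and 1113 and 955 of all tested genes. Each level rests on 2 libraries per genotype.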

Other observations

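Lowering the fold limit to 1.5 added 19 genes, which are described without a test. They included a further pair of NAC genes, ANAC019 and NAC047, of which NAC047 (AT3G04070) was at 88.6 and 148 in the hda19 libraries, compared with 20.1 and 30.3 in Col-0 and 58.2 and 22.0 in hdip1/2/3. MEB1 and MEB2, which encode membrane proteins of endoplasmic reticulum bodies, were both among them, beside TSA1 in the set itself. MEB1 (AT4G27860) was at 347 and 188 in Col-0 and at 289 and 230 in hdip1/2/3, compared with 523 and 550 in hda19, and MEB2 (AT5G24290) was at 100.8 and 131 in hda19, against 36.2 and 30.4 in Col-0 and 63.0 and 66.6 in hdip1/2/3. In MEB1 the ranges of the wild type and hdip1/2/3 overlapped, and in MEB2 they did not. The nitrilase gene NIT2 (AT3G44300) had the largest values, at 3070 and 3723 in hda19, against 112 and 140 in the wild type and 1942 and 1311 in hdip1/2/3, so that it was high in both mutants. HAI1 (AT5G59220), a phosphatase gene of abscisic acid signalling, was at 227 and 229 in the hda19 libraries, compared with 57.3 and 62.7 in Col-0 and 145 and 99.8 in hdip1/2/3. A pair of berberine-bridge enzyme genes, AT1G30700 and AT5G44380, was also added.

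LAC7 (AT3G09220), a laccase gene below the minimum, had a ratio of 4.92, above that of every gene in the set, with 42.2 and 46.3 in hda19, against 4.02 and 4.05 in Col-0 and 8.57 and 2.42 in hdip1/2/3.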
